A study of Mus musculus with 6 samples.

Results

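Scavenger and phagocytic receptors are cell-surface proteins that bind lipids, protein aggregates or dying cells and bring them into the cell, and 9 of their genes were followed here: Cd36, Msr1, Cd68, Scarb1, Mrc1, Cd163, Stab1, Megf10 and Mertk. All 9 were found by symbol among the 24411 genes of the table. They were chosen by function with an earlier analysis of these same libraries in view, in which Cd36 and Msr1 stood among the largest rises, so their differences between the groups are given as descriptions and support nothing. The libraries came from primary cultures of cortical neurons of mouse embryos at day 18, given either phosphate-buffered saline (PBS, 3 libraries) or preformed fibrils of mouse α-synuclein (PFF, 3 libraries). Such fibrils are grown from purified protein in a tube. Cultures received 3.45 µM of them at day 10 in vitro and were lysed for RNA, like the PBS cultures, at day 18. No genotype or strain is named in the labels, and PBS is the only control, so the comparison holds everything that was added with the fibrils. Nothing in the labels ties a library to its own culture or litter, so a p-value here reflects the spread among 6 libraries only, which may be technical.

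In brain tissue, microglia and border macrophages carry most classical scavenger receptors. Class A receptors such as Msr1 bind modified lipoproteins and other polyanionic ligands, and class B receptors such as Cd36 and Scarb1 bind lipids and lipoproteins. Astrocytes engulf synapses and debris through Megf10 and Mertk. Mertk recognises phosphatidylserine on dying cells through the bridging ligands Gas6 and protein S, and microglia express it too. Grouping Mertk with Megf10 as astrocytic therefore follows the way the genes were chosen and does not say which cells of these cultures made its RNA.

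Estimated counts totalled 9224974 to 10742383 per library. Of all genes, 13919 had enough counts to be tested, and 8 of the 9 receptors were among them, all except Cd163. Neuron markers were present as the label says: all 9 were tested, with a summed level of 4981 to 5277 CPM (counts per 1000000 counts) in PBS and 5137 to 5639 in PFF. The 14 astrocyte markers summed to 5026 to 6532 CPM in PBS and 5007 to 6152 in PFF. The 19 microglia markers summed to 181 to 300 CPM in PBS and 572 to 709 in PFF, and none of them was at 0 in all libraries. Among the microglia markers, P2ry12 stood at only 1.02 ± 0.369 CPM (SD, n = 3, as for every mean below) in PBS and at 1.20 ± 0.133 CPM in PFF, and Tmem119 and Siglech were too low to be tested. In bulk RNA, more cells of a type and more RNA per cell cannot be told apart.

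Of the 8 tested receptors, 5 rose in PFF and none fell at an adjusted p under 0.05 in edgeR's quasi-likelihood test over all genes. Among all genes tested, 3.98% rose and 2.60% fell by the same rule, and nothing is read from that difference because this contrast was in view when the receptors were chosen. The 5 were Cd36, Msr1, Stab1, Mrc1 and Cd68, all receptors of microglia and macrophages. Of these, Mrc1 was kept by the low-count filter only through its PFF counts. Mertk, Megf10 and Scarb1 did not pass. The median log2 fold change of the 8 was 1.28, beside −0.00 over all genes tested. For 6 of the 8, every PFF library was above every PBS library, as for 13.4% of all genes tested. For 1 of the 8, every PFF library was below, as for 11.6% of all genes tested, and 1 overlapped. The number of receptors that rose was 4 with a minimum of 50 counts in 3 libraries, where Mrc1 was not tested, and 5 with each library left out in turn.

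**Figure D1:**
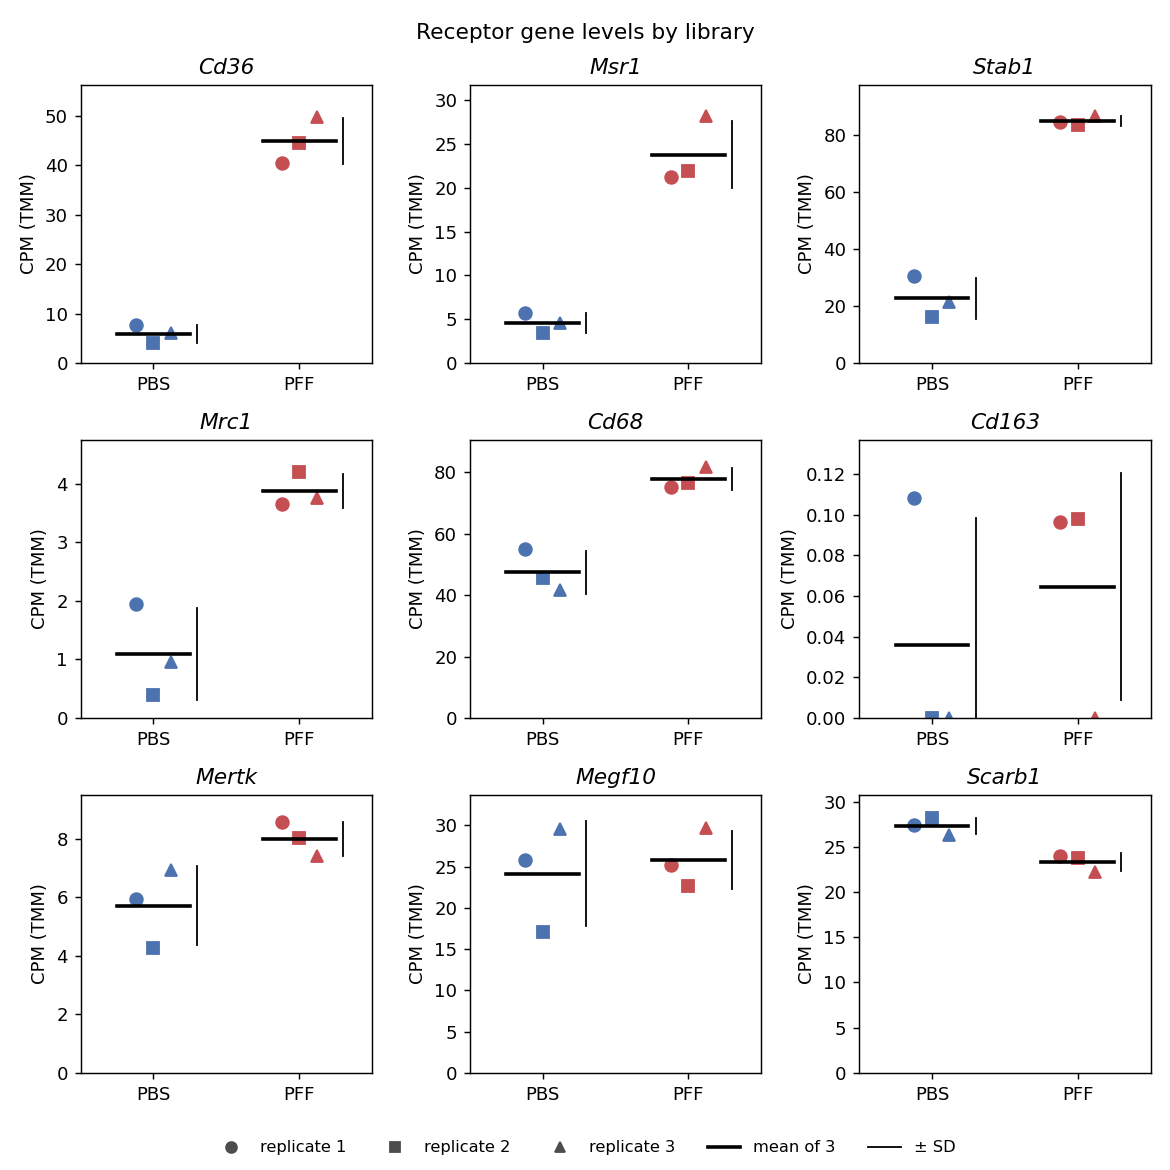
TMM-normalised CPM of each receptor gene (y axis, from 0, with its own scale per panel) in the 3 PBS and 3 PFF libraries, with the mean as a thick bar and the SD as a thin line that is not drawn below 0. Cd36, Msr1, Stab1, Mrc1, Cd68 and Mertk have all PFF points above all PBS points, Scarb1 all below, and Megf10 overlaps.

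Of the receptors that rose, 4 have an entry in RefSeq's table of promoters (GRCm38.p6, the assembly of mm10). The 250 bases before the start given there are shown. They are written 5′ to 3′ on the strand of the gene. Capitals mark every match, on either strand, to 4 motifs: GAGGAAG (PU.1 type), TTGCNNAA (C/EBP type), CACGTG (E-box) and AGGTCA (a nuclear receptor site).
Cd36 (chr5:17835897-17836146, minus strand): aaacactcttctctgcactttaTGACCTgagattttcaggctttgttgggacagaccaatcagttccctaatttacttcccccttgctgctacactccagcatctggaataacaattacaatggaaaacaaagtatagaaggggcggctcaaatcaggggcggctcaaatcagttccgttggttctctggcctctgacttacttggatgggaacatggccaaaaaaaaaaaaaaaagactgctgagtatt
Stab1 (chr14:31168642-31168891, minus strand): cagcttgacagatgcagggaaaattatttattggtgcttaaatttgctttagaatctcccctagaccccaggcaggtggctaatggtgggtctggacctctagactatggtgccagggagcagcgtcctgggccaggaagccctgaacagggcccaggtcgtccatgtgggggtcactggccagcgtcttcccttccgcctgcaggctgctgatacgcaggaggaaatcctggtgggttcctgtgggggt
Mrc1 (chr2:14229164-14229413, plus strand): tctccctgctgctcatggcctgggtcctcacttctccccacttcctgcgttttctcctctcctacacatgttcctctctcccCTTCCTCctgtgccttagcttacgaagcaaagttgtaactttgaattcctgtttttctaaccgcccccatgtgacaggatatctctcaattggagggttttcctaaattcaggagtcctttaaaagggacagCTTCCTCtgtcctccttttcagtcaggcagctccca
Cd68 (chr11:69666171-69666420, minus strand): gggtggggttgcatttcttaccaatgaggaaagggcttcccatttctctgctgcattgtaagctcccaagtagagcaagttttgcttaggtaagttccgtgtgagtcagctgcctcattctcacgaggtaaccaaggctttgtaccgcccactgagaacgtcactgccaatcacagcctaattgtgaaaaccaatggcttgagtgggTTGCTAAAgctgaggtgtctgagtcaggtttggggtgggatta

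The window of Mrc1 held the PU.1 type motif at 2 places, from 168 to 162 and from 36 to 30 bases before the start, and 10.6% of 32817 RefSeq promoter windows of this length hold it at least once. The Cd36 window held 1 nuclear receptor site, from 228 to 223 bases before the start, as do 14.0% of all windows. This start of Cd36 lies inside the annotated gene (17781690 to 17888801, minus strand) and not at its 5′ end. The Cd68 window held 1 C/EBP type motif, from 43 to 36 bases before the start, as do 9.57% of all windows. The Stab1 window held none of the 4, and no E-box was found in these 4 windows (6.02% of all windows hold one). Any match here is a match of letters only. RefSeq entries were found for 6 of the 9 receptors and not for Msr1, Scarb1 and Megf10. The windows of Cd163 and Mertk, not shown, held none of the 4 motifs. The shorter ETS core GGAA, not marked, was in all 6 windows, as in 93.4% of all windows.

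Cd36 encodes a class B receptor for fatty acids, oxidised lipoproteins and protein aggregates. It had 7.68, 3.98 and 6.06 CPM in PBS replicates 1 to 3 and 40.5, 44.5 and 49.8 CPM in PFF replicates 1 to 3. The lowest PFF library was thus far above the highest PBS library. Its log2 fold change was 2.94 ± 0.16 (SE), or 7.66-fold, which ranks 2 among the 13919 genes. Over the 17 alternative analyses, which differ in scaling, filter, test, block or libraries, this value ran from 2.71 to 3.16. Cd36 lies on chromosome 5 from 17781690 to 17888801 (minus strand, GENCODE vM21 on GRCm38) and is protein-coding, with no exonic base shared with another gene. The counts are per gene and do not distinguish its exons or transcripts.

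Msr1 encodes the class A macrophage scavenger receptor. Its level was 5.73, 3.39 and 4.52 CPM in PBS and 21.3, 21.9 and 28.1 CPM in PFF. The PFF libraries stood apart from the PBS libraries again, with replicate 3 the highest of them. The log2 fold change was 2.39 ± 0.18, or 5.25-fold, with 2.21 to 2.58 over the 17 alternatives. Msr1 lies on chromosome 8 from 39581685 to 39642673 (minus strand).

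Stab1, or stabilin-1, is a scavenger receptor of macrophages and sinusoidal endothelium that takes up modified lipoproteins and matrix proteins. It had 30.5, 16.0 and 21.4 CPM in PBS and 84.3, 83.4 and 86.7 CPM in PFF. The PFF libraries were nearly level with each other, whereas PBS replicate 1 was well above PBS replicate 2. The log2 fold change was 1.91 ± 0.16, or 3.77-fold, and 1.71 to 2.18 over the alternatives. With replicates 1 and 2 only it was 1.87 and did not pass (adjusted p = 0.0842 in edgeR). Since Stab1 is also endothelial, 7 endothelial markers were read beside it, and none passed. Flt1 had 1.00 ± 0.238 CPM in PBS and 1.96 ± 0.610 CPM in PFF, with every PFF library above (log2 fold change 0.96 ± 0.34, adjusted p = 0.124 in edgeR). Pecam1 (0.11 ± 0.38) and Kdr (−0.59 ± 0.47) overlapped between the groups, Cldn5 was at 0 in all libraries, and Cdh5, Tek and Emcn were too low to be tested. The 7 markers together summed to 3.65 to 3.89 CPM in PBS and 3.56 to 4.64 in PFF, and their part in the level of Stab1 was not tested. Of the exonic bases of Stab1 (chromosome 14 from 31139013 to 31168641, minus strand), 1.09% overlap Nt5dc2 on the opposite strand, and its deposited counts were not whole numbers.

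Mrc1 encodes the mannose receptor CD206, a marker of border macrophages in the brain. It was low, at 1.95, 0.388 and 0.961 CPM in PBS (18, 4 and 10 counts) and 3.66, 4.21 and 3.75 CPM in PFF (38, 43 and 38 counts). The groups did not overlap, but PBS replicate 1 lay between the other PBS libraries and the PFF libraries. The log2 fold change was 1.84 ± 0.35, or 3.58-fold, and it passed in all 16 alternatives in which Mrc1 was tested. It was 2.49 without PBS replicate 1 and 1.43 without PBS replicate 2. Mrc1 was kept by the low-count filter through its PFF counts, since PBS replicates 2 and 3 were under the filter's minimum. Its entry into the test thus depended on the group where it is high, and its passing is no separate support for a rise. Cd163, the haemoglobin-haptoglobin receptor of border macrophages, had 1 count in each of PBS replicate 1, PFF replicate 1 and PFF replicate 2 and 0 counts in the other libraries. A count of 0 allows up to 3 counts, which is 0.288 to 0.325 CPM in these libraries, so no fold change can be given for Cd163. Of the 9 other markers of border macrophages, Ms4a7 (1.60 ± 0.22) and Folr2 (1.52 ± 0.27) rose. The chemokine gene Pf4 had 0.782 ± 0.455 and 2.05 ± 0.521 CPM in the PBS and PFF groups and did not pass (adjusted p = 0.0556 in edgeR). Pf4 passed in 3 of its 16 alternatives: with the replicate number as a block (adjusted p = 0.0128), with replicate 3 as a batch term (0.0196) and with no filter on low counts (0.0210). Cbr2, Cd209f and Clec10a were at 0 in all libraries, and Lyve1, F13a1 and Ccl24 were too low to be tested. The list summed to 4.95 to 9.52 CPM in PBS and 20.1 to 26.1 in PFF, and the part of border macrophages in the level of Mrc1 was not tested.

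Cd68, or macrosialin, is a heavily glycosylated protein of late endosomes and lysosomes in phagocytes. It had 55.1, 45.6 and 41.5 CPM in PBS and 75.1, 76.6 and 81.8 CPM in PFF. No PBS library reached the PFF range. Its log2 fold change was 0.72 ± 0.10, or 1.64-fold, and 0.60 to 0.83 over the alternatives. This was the smallest rise of the 5 receptors that passed. Cd68 lies on chromosome 11 from 69664213 to 69666153 (minus strand) and has 1257 exonic bases, the fewest of the 9.

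Mertk encodes a receptor tyrosine kinase for engulfment of dying cells. It had 5.95, 4.27 and 6.92 CPM in PBS and 8.57, 8.02 and 7.41 CPM in PFF. The PFF libraries lay above the PBS libraries, but the gap between PFF replicate 3 and PBS replicate 3 was small. The log2 fold change was 0.49 ± 0.18, with a 95% interval from 0.10 to 0.88 before adjustment over genes, and it did not pass (adjusted p = 0.140 in edgeR). The adjusted p ran from 0.0179 to 0.379 over the 17 alternatives, and Mertk passed in 1 of them, with replicates 1 and 2 only (0.71). Mertk lies on chromosome 2 from 128698956 to 128802894 (plus strand).

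Megf10, whose protein carries many EGF-like repeats and binds C1q on apoptotic cells, had 25.9, 17.1 and 29.5 CPM in PBS and 25.2, 22.7 and 29.6 CPM in PFF. The groups overlapped over most of their range, and replicate 3 was the highest library in both. The log2 fold change was 0.10 ± 0.17 (95% interval −0.27 to 0.47, adjusted p = 0.793 in edgeR), and it was not called in any of the 17 alternatives. The value was −0.11 without PBS replicate 2, −0.01 without PFF replicate 3 and 0.28 without PBS replicate 3. Megf10 lies on chromosome 18 from 57133090 to 57297467 (plus strand).

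Scarb1 encodes SR-BI, a receptor for high-density lipoprotein that is expressed in many cell types. It had 27.4, 28.1 and 26.3 CPM in PBS and 24.0, 23.8 and 22.2 CPM in PFF. Every PFF library was below every PBS library, within a narrow range. The log2 fold change was −0.23 ± 0.09 (95% interval −0.42 to −0.03) and did not pass (adjusted p = 0.175 in edgeR). It was not called in any of the 17 alternatives (adjusted p from 0.0802 to 0.391). Within class B, Cd36 thus stood at 2.94, Scarb1 at −0.23, and the lysosomal member Scarb2, or LIMP-2, at 0.23 ± 0.09 (75.9 ± 9.52 and 88.8 ± 5.07 CPM without and with fibrils, adjusted p = 0.181 in edgeR). Scarb2 passed in 4 of its 17 alternatives, with adjusted p from 0.00588 to 0.467 over all of them.

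**Figure D2:**
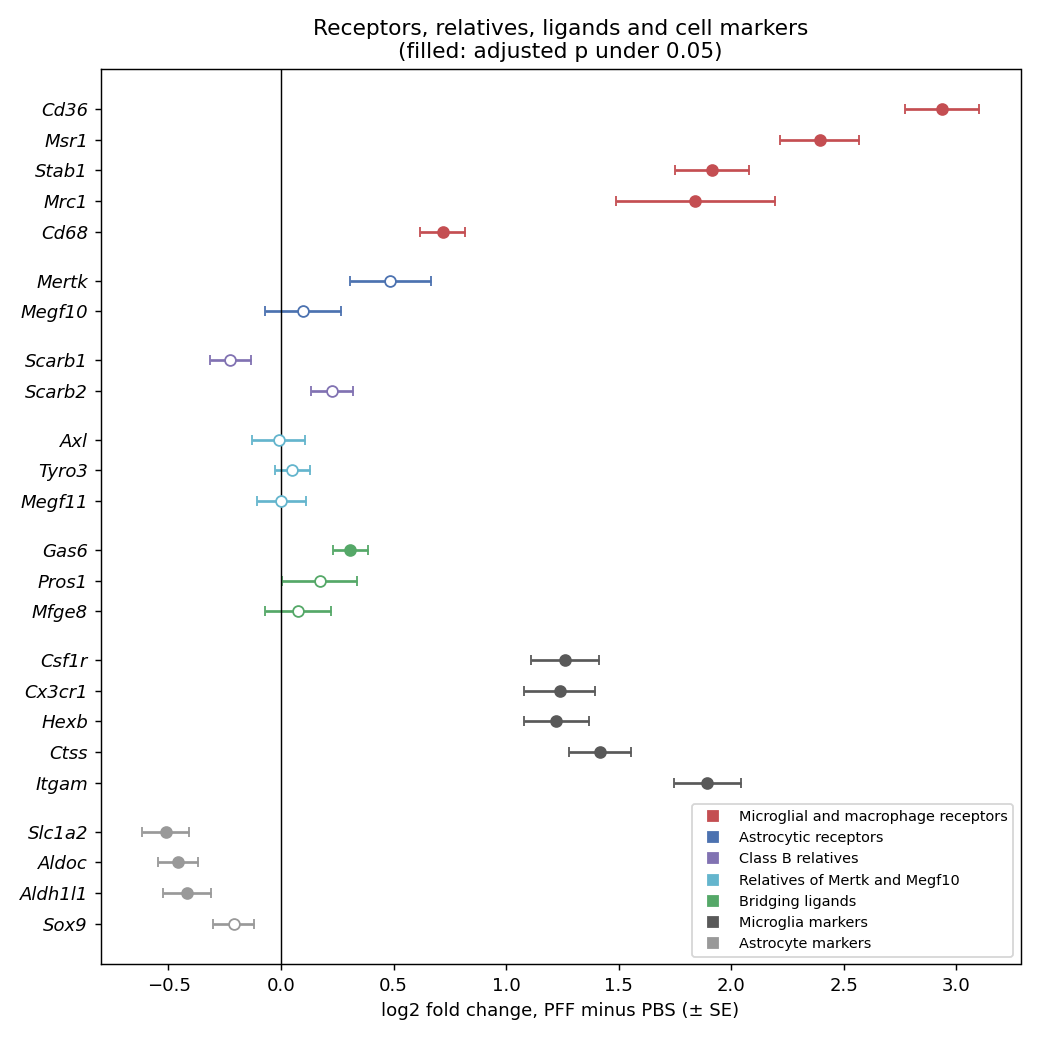
Log2 fold change of PFF minus PBS (x axis) with its SE for the 8 tested receptors, their relatives and ligands, and cell type markers, with filled points where the adjusted p was under 0.05. Microglial receptors lie between 0.72 and 2.94, Mertk and Megf10 at 0.49 and 0.10, and the 4 astrocyte markers with the smallest p between −0.51 and −0.21, while the 13 tested ones run from −0.55 to 0.12.

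The microglial and macrophage receptors (Cd36, Msr1, Cd68, Mrc1, Cd163 and Stab1) were next set beside the astrocytic pair (Megf10 and Mertk) within each library. The microglial receptors summed to 101, 69.3 and 74.5 CPM in PBS and 225, 231 and 250.1 CPM in PFF. The astrocytic pair summed to 31.8, 21.3 and 36.4 CPM in PBS and 33.8, 30.7 and 37.0 CPM in PFF. Only the microglial sum separated the groups. The microglial sum was 3.18, 3.25 and 2.04 times the astrocytic sum in PBS and 6.66, 7.51 and 6.75 times in PFF. On the log2 scale the mean ratio was 1.33 higher in PFF, and 2.04 higher when Cd68, the largest contributor in PBS, was left out. No test was made on these sums because the receptors were chosen with this contrast in view. Within the astrocytic pair, the level of Mertk was 0.230, 0.250 and 0.235 of that of Megf10 in PBS and 0.340, 0.353 and 0.250 in PFF, so PFF replicate 3 equalled PBS replicate 2.

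**Figure D3:**
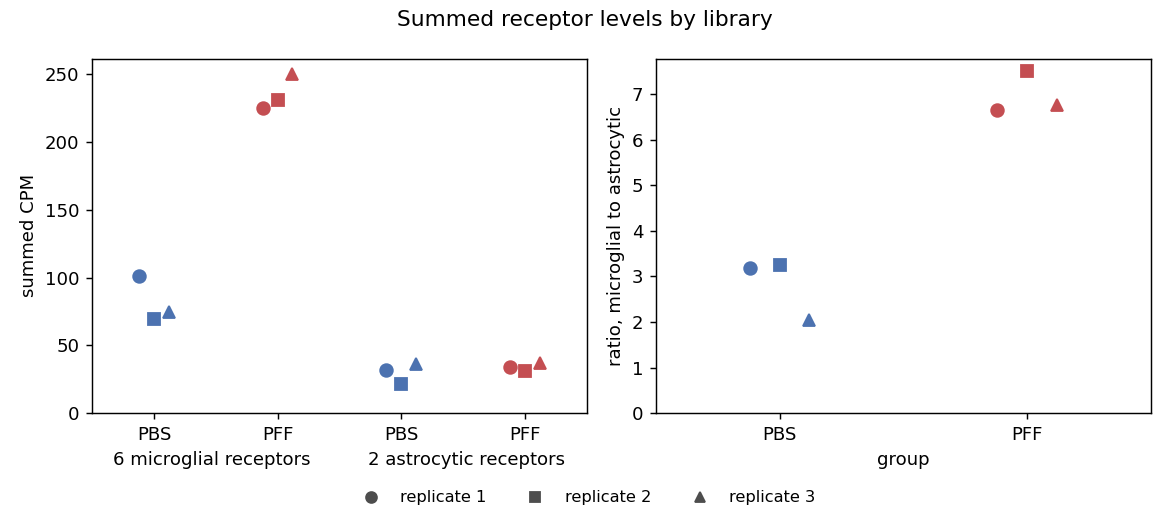
Left, CPM summed over 6 microglial and 2 astrocytic receptor genes in each library (y axis). Right, the ratio of the sums, which is 2.04 to 3.25 in PBS and 6.66 to 7.51 in PFF, while the astrocytic sums of the groups overlap.

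Markers of both cell types moved beside these receptors. Among all genes tested, 3.98% rose and 2.60% fell. Of 17 tested microglia markers, 16 rose and none fell, and their median log2 fold change was 1.376. They included the integrin Itgam (1.89 ± 0.15), the complement gene C1qa (1.56 ± 0.15), the tetraspanin Cd53 (1.71 ± 0.17) and cathepsin S (Ctss, 1.42 ± 0.14). The growth factor receptor gene Csf1r, named after its value was seen, rose by 1.26 ± 0.15. Of 13 tested astrocyte markers none rose and 3 fell: the glutamate transporter gene Slc1a2 (−0.51 ± 0.10), the aldolase gene Aldoc (−0.46 ± 0.09) and Aldh1l1 (−0.42 ± 0.11). The other 10 did not pass and ran from −0.55 (Gjb6) to 0.12 (Gfap), with Sox9 at −0.21 ± 0.09 (adjusted p = 0.202 in edgeR). The number of astrocyte markers that fell was 1 without PBS replicate 1 and 0 without PFF replicate 2. All 6 markers of oligodendrocyte progenitors fell, with a median of −0.51, among them Pdgfra (−0.62 ± 0.07) and Sox10 (−1.01 ± 0.18), and 3 of the 6 fell without PBS replicate 1 or without PFF replicate 2. Of 9 neuron markers, Syt1 rose (0.33 ± 0.09, adjusted p = 0.0490 in edgeR) and fell short of the threshold in 9 of 17 alternatives.

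Relative to the summed microglia markers of the same library, the receptors separated into 3 patterns. Cd36 stood at 25.6, 22.0 and 25.1 CPM per 1000 CPM of microglia markers in PBS and at 70.9, 76.5 and 70.2 in PFF. Msr1 stood at 19.1, 18.8 and 18.8 in PBS and at 37.2, 37.7 and 39.7 in PFF. Every PFF library exceeded every PBS library for both genes, and the 3 PBS values of Msr1 were almost the same. Stab1 was also higher on this scale, at 88.5 to 102 in PBS and 122 to 147 in PFF. Mrc1 overlapped, at 2.15 to 6.49 in PBS and 5.29 to 7.23 in PFF. Cd68 was lower on this scale in PFF, at 172 to 252 in PBS and 115 to 132 in PFF. Mertk stood at 19.8 to 28.7 in PBS and 10.4 to 15.0 in PFF, and Megf10 at 86.1 to 123 and 39.0 to 44.1, again without overlap. The summed markers themselves stood at 181 to 300 CPM in PBS and 572 to 709 CPM in PFF. A gene whose own CPM does not change therefore falls on this scale, so a lower value here is no fall of the receptor itself. The marker list holds none of the receptors. The mean log2 difference from PBS was 1.58 for Cd36, 1.02 for Msr1, 0.56 for Stab1, 0.71 for Mrc1, −0.67 for Cd68, −0.88 for Mertk, −1.26 for Megf10 and −1.62 for Scarb1. No test was made on these ratios, for the reason given for the sums.

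**Figure D4:**
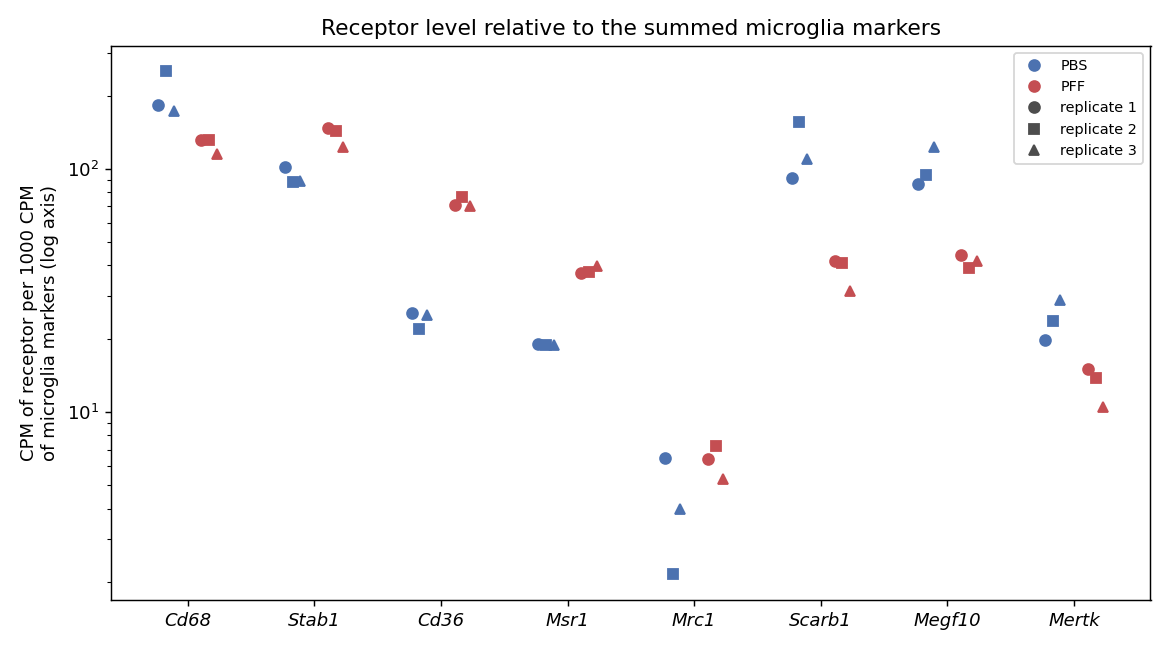
CPM of each tested receptor per 1000 CPM of summed microglia markers in each library (log y axis). PFF points lie above PBS points for Cd36, Msr1 and Stab1, overlap them for Mrc1, and lie below them for Cd68, Scarb1, Megf10 and Mertk. The marker sum is itself higher in PFF, so a gene with unchanged CPM lies lower in PFF on this axis.

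To compare levels between genes, CPM were divided by the exonic length in kilobases. In PBS, Cd68 was highest at a mean of 37.7 CPM per kilobase, above 90.2% of the tested genes with a length. Scarb1 (3.21), Megf10 (3.13), Stab1 (2.20), Cd36 (1.65) and Mertk (1.32) followed, and each of these overlapped its neighbour in this order across libraries. Msr1 (0.717), Mrc1 (0.173) and Cd163 (0.00660) came last. In PFF, the order was Cd68 (61.9 CPM per kilobase), Cd36 (12.5), Stab1 (8.25), Msr1 (3.75), Megf10 (3.35), Scarb1 (2.74), Mertk (1.85), Mrc1 (0.608) and Cd163 (0.0119). Here Msr1 and Megf10 overlapped and the other neighbours did not. Cd36 moved from above 22.2% to above 71.3% of genes, and Msr1 from above 10.1% to above 39.0%.

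**Figure D5:**
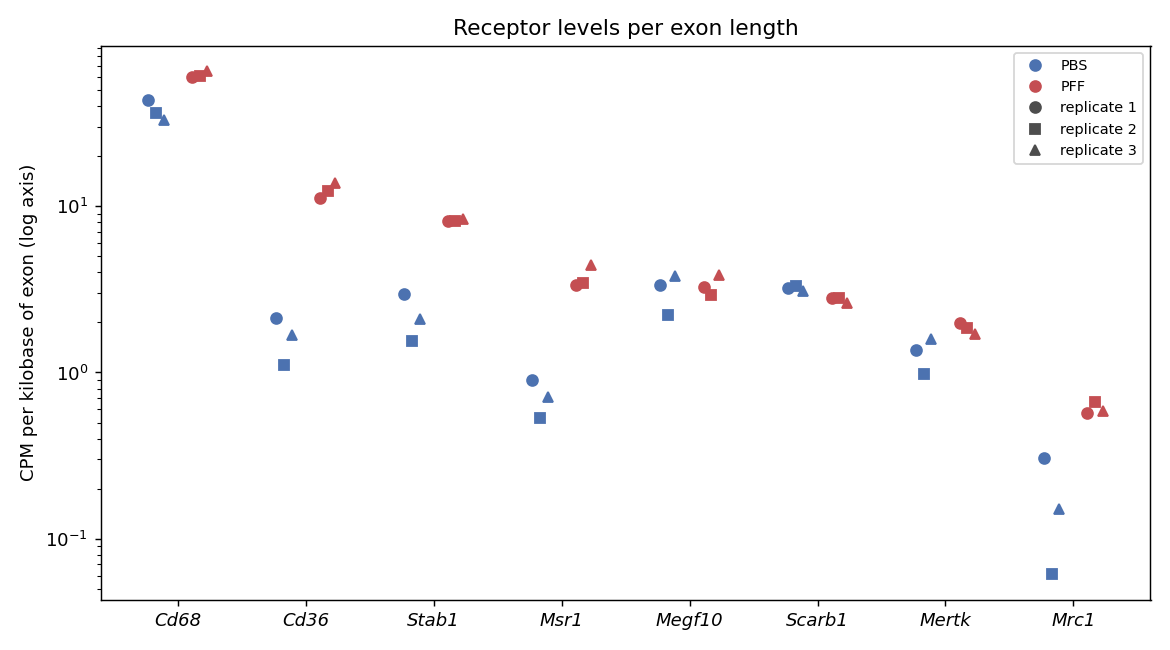
CPM per kilobase of exon (log y axis) of the 8 tested receptors in each library, ordered by their mean in PFF. Cd68 is highest in both groups, and Cd36 and Stab1 pass Scarb1 and Megf10 in PFF.

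Other scavenger receptors were read from a list of 23 genes, of which 14 were tested. Of these, 8 rose and none fell (median 0.94 on the log2 scale), beside 3.98% and 2.60% of all genes tested. The C-type lectin gene Clec4d rose from 1.01 ± 0.211 to 6.23 ± 1.82 CPM (2.62 ± 0.30). Every PFF library of Clec4d met the minimum of the low-count filter, but not every PBS library. Cxcl16, a chemokine that also acts as a scavenger receptor for oxidised lipoprotein, rose by 1.60 ± 0.22. Colec12, a class A relative of Msr1 found on vascular and other cells, rose by 1.31 ± 0.15, and Clec7a, the β-glucan receptor dectin-1, by 0.94 ± 0.11. Marco, the class A receptor of macrophages in other tissues, had a mean of 0 CPM in PBS and 0.0321 CPM in PFF and was not tested. The large endocytic receptor Lrp1 and its relative Lrp8, named after their values were seen, did not pass (0.18 ± 0.08 and 0.11 ± 0.09, adjusted p = 0.189 and 0.509 in edgeR).

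Among 18 tested engulfment receptors of a 24-gene list, 9 rose and none fell (median 0.65), beside 3.98% and 2.60% of all genes tested. Itgam and Trem2 of this list were already counted among the microglia markers. The inhibitory lectin receptor gene Clec12a rose by 2.67 ± 0.29, the activating receptor gene Cd300lb by 2.62 ± 0.28, Itgam, a subunit of complement receptor 3, by 1.89 ± 0.15 and the phosphatidylserine receptor gene Havcr2, or TIM-3, by 1.81 ± 0.22. In PBS, Clec12a stood at only 1.09 ± 0.585 CPM and Cd300lb at 0.775 ± 0.198 CPM. Both were kept by the low-count filter through their PFF counts. The relatives of Mertk did not pass: Axl stood at 42.3 ± 7.69 CPM in PBS and 42.0 ± 2.73 in PFF (−0.01 ± 0.12), and Tyro3 at 73.7 ± 3.37 and 76.2 ± 4.22 CPM (0.05 ± 0.08). The nearest relative of Megf10, Megf11, stood at 22.0 ± 1.18 and 22.0 ± 2.53 CPM (0.00 ± 0.11). Adjusted p-values in edgeR were 0.969, 0.774 and 0.996 for these genes. Per kilobase of exon in PBS, the level of Tyro3 was 11.9 CPM and that of Axl 8.40, both above Mertk at 1.32.

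Per kilobase of exon in PBS, the bridging ligand genes Gas6 (31.3 CPM), Mfge8 (18.4) and Pros1 (3.98) were all above Mertk (1.32). Gas6 had 82.6, 73.0 and 83.8 CPM in PBS and 95.4, 98.7 and 102 CPM in PFF. It rose by 0.31 ± 0.08 (adjusted p = 0.0321 in edgeR), with no overlap between the groups. It did not pass without PBS replicate 1, PBS replicate 2, PFF replicate 1 or PFF replicate 2 (adjusted p = 0.0898, 0.159, 0.0617 and 0.127). Pros1, the gene of protein S, had 16.3 ± 2.78 and 18.3 ± 4.47 CPM (0.17 ± 0.17), and Mfge8, which bridges phosphatidylserine to integrins, 86.3 ± 18.1 and 90.9 ± 15.0 CPM (0.07 ± 0.15). Neither passed (adjusted p = 0.607 and 0.826 in edgeR). Of the 16 tested ligands and opsonins, 9 rose and none fell (median 0.35), beside 3.98% and 2.60% of all genes tested. Among the 9 were C1qa and C1qc (1.32 ± 0.16), both also microglia markers, galectin-3 (Lgals3, 2.22 ± 0.12) and annexin A1 (Anxa1, 2.71 ± 0.27). C1qb rose too and was likewise already counted among the microglia markers. With replicates 1 and 2 only, C1qc did not pass (adjusted p = 0.0709).

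Of 25 tested genes that signal behind engulfment receptors, 10 rose and none fell (median 0.13), beside 3.98% and 2.60% of all genes tested. The number that rose ran from 8 to 10 over the alternatives. The 4 listed genes with the smallest p, Vav1 (2.17 ± 0.26), Cybb (1.90 ± 0.20), Rac2 (1.88 ± 0.19) and Dock2 (1.66 ± 0.18), were all among those that rose. Tyrobp rose too and was already counted among the microglia markers. The kinase gene Fyn, named after its value was seen, stood at −0.21 ± 0.08 (adjusted p = 0.124 in edgeR). Fyn fell with the replicate number as a block (adjusted p = 0.0289), with replicate 3 as a batch term (0.0239) and with replicates 1 and 2 only (0.0289). Adam17, the protease that sheds Mertk from the cell surface, rose by 0.33 ± 0.09, close to the threshold (adjusted p = 0.0446 in edgeR). Its call was not followed over the alternatives, and it was also named after its value was seen. Gulp1, an adaptor that binds Megf10, did not pass (−0.16 ± 0.17, adjusted p = 0.634 in edgeR), and was named in the same way.

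Cd68 is a lysosomal membrane protein, and of 13 tested genes of that class 3 rose and none fell (median 0.14). Among all genes tested, the shares were 3.98% and 2.60%. The 3 that rose were Slc11a1 (1.84 ± 0.24), Gpnmb (1.53 ± 0.16) and Laptm5 (1.49 ± 0.15), all known from macrophages. Laptm5 was already counted among the microglia markers. Gpnmb rose from 77.3 ± 21.2 to 223 ± 19.4 CPM and did not pass with replicates 1 and 2 only (adjusted p = 0.163 in edgeR) or with the replicate number as a block (0.0663). The other 10 did not pass and lay between −0.07 and 0.23.

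Of 15 tested transcription factors known to control scavenger receptor genes, 6 rose and none fell (median 0.44), beside 3.98% and 2.60% of all genes tested. Spi1, which encodes PU.1, rose from 1.70 ± 0.384 to 7.28 ± 0.867 CPM (2.09 ± 0.22). Irf8 rose by 1.54 ± 0.20 and Stat6 by 1.32 ± 0.16. Pparg, the lipid-activated receptor known to induce Cd36 in macrophages, had a mean level of 0.732 CPM without and 1.14 CPM with fibrils (0.63 ± 0.48, adjusted p = 0.489 in edgeR), and the liver X receptor gene Nr1h3 at 1.34 and 1.27 CPM (−0.07 ± 0.37, adjusted p = 0.934). Both were named after their values were seen.

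Across the 6 libraries, the genes whose log2 CPM followed Cd36 most closely, among 11114 others with a mean of at least 5 CPM, were Lpl, Mpeg1, Msr1, Plau and Itgam (Pearson's r from 0.997 to 0.999). Lipoprotein lipase (Lpl) went from 55.9 ± 8.98 to 172 ± 16.3 CPM, and the macrophage perforin Mpeg1 from 48.9 ± 9.42 to 142 ± 11.0 CPM. For Mertk the closest were Pla2g4e, Proz, Tenm1, Spata6 and Hnrnpf (r from 0.977 to 0.993), and their log2 fold changes lay between 0.08 and 0.32. No gene was in both sets, which says little with 5 genes taken from 11114. Among the receptors themselves, Mertk correlated with Mrc1 at 0.874, Stab1 at 0.840, Cd36 at 0.828 and Msr1 at 0.808. With Cd68 it was 0.685, with Megf10 0.671 and with Scarb1 −0.797. The 6 points share their group difference and their libraries, so these correlations only describe likeness.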

How the data were processed

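Total RNA of mouse cortical neuron cultures (6 libraries) was purified on columns and made into strand-marking libraries, per the labels' protocols. The authors deposited 1 table of estimated counts per gene, unscaled, of which 8.69% were not whole. The submitters' processing notes name Trim Galore 0.6.6, STAR 2.7.9a, DESeq2 1.38.3 and mm10. The counting tool, its strand setting and its gene models remain not given in the sources used here.

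Counts were rounded, filtered with filterByExpr (10492 genes left out), scaled by TMM and tested with edgeR 4.0.16 (robust quasi-likelihood, two-sided) in R 4.3.3, with Benjamini-Hochberg adjustment over all 13919 genes at 0.05. SE is the log2 fold change divided by the square root of F. Log2 CPM used a prior count of 2. Exonic lengths and positions came from GENCODE vM21 (GRCm38), where 96.1% of tested symbols matched 1 gene.

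The receptors, the 12 gene lists and the tests were chosen with earlier results of these data known. Named were all receptors, the relatives and ligands of Mertk and Megf10, Scarb2 and Marco, the 5 genes most like Cd36 or Mertk, and up to 4 genes per list by smallest p. One gene that this rule names is not reported here. Alternatives were 3 scalings, 2 filters, DESeq2 1.42.0, limma-voom (limma 3.58.1), no robust estimation, a replicate block, replicate 3 as a batch term, replicates 1 and 2 only, and each library left out. The steps were tested on simulated data.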

Additional observations from a re-analysis of the deposited data

How the results depend on the processing

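With the replicate number as a replicate block, 1043 genes rose and 954 fell, against 554 and 362 without it. Replicate 3 as a batch term gave 1029 and 976, and replicates 1 and 2 only gave 1225 and 1169. Leaving out 1 library gave 312 (PFF 2) to 869 (PFF 3) genes higher and 100 (PFF 2) to 987 (PFF 3) lower. Counts were 354 and 157 without PBS 1, 367 and 234 without PBS 2, and 384 and 197 without PFF 1. Same-numbered libraries correlated in their deviations from the group means by 0.0932, 0.110 and 0.201. Replicate 3 of either group correlated with the other numbers of the other group by −0.207 to −0.00764. PBS 2 correlated better with PFF 1 (0.127) than with PFF 2. With no pairing named in the labels, the numbers were not taken as pairs in the main fit. The difference between microglial and astrocytic receptors was 2.04 without Cd68 and otherwise 1.12 to 1.45. Against the mean log2 level of the microglia markers instead of their sum, Cd36 was 1.76, Msr1 1.19 and Stab1 0.74 higher in PFF. With at least 50 counts in 3 libraries, 5 other scavenger and 5 other engulfment receptors rose, since fewer genes were tested. Between 0 and 4 neuron markers rose over the alternatives.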
